A study of Mus musculus with 20 samples.

Results

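Trimethylation of histone H3 at lysine 4 (H3K4me3) was compared between whole mouse liver and mouse embryonic stem (ES) cells. The comparison rests on 4 of the 20 libraries of the series, which are 1 H3K4me3 library and 1 background library of total histone H3 from each source. The members were chosen by cell source and antibody alone. Over chromosomes 1 to 19, stretches of enriched 500 bp bins were joined into domains in each library, and the domains of both libraries merged into 20454 regions. Of these, 11459 were called in both libraries and are named shared, 2942 were called in ES cells alone and 6053 in liver alone.

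H3K4me3 is placed on nucleosomes at the start of genes by the SET1 and MLL families of methyltransferases and marks promoters that are active or held ready for activity. It usually covers a narrow interval around a start site, and broader domains are known from genes central to the identity of a cell type. Monomethylation of the same lysine (H3K4me1) is found at enhancers and on the flanks of promoters, and acetylation of lysine 27 (H3K27ac) marks active promoters and enhancers. In ES cells, many promoters of developmental genes carry H3K4me3 at a low level together with a repressive mark, whereas liver tissue is made up mostly of hepatocytes, a differentiated epithelial cell.

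The series mapped chromatin marks by chromatin immunoprecipitation and sequencing in ES cells, liver, fibroblasts, induced pluripotent cells and neural progenitors. The ES H3K4me3 and ES H3 libraries came from V6.5 cells, a line of C57BL/6-129 background, kept for 1 passage without feeder cells before fixation. The same line gave 2 ES H3K27ac libraries, also after 1 passage, and the first of 3 ES H3K4me1 libraries, after 2 passages. The second H3K4me1 library came from V6.5 cells that carry the dox inducible 4f2a transgene, and the third from inbred C57BL/6 cells of the line j21. Both were made after 1 passage without feeder cells. The ES p300 and whole cell extract libraries had 2 passages. Liver H3K4me3, H3, H3K27ac and H3K4me1 came from perfused liver that was dissociated, strained and spun at 30 g for 3 min, with 1 library per target. The labels do not give the strain, age or sex of the liver donors, or whether animals were pooled. No treatment of the liver or of the ES cells was stated. Liver holds several cell types, so a mark on fewer cells and less of the mark per cell cannot be told apart in these libraries. With 1 H3K4me3 library per source, no difference below carries a p-value or a check against the spread between replicates. The intervals given are Wilson 95% intervals. They cover counting error only, since reads were amplified without molecular identifiers and neighbouring domains are not independent.

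The H3K4me3 libraries differed in complexity and in enrichment before any domain was compared. The ES library held 7.90 M reads, of which 70.0% of those on the autosomes repeated a position and strand already seen, leaving 2.32 M distinct reads. The liver library held 9.24 M reads with 13.2% repeats and 7.89 M distinct reads, and was thinned at random to the number of the ES library, so that 1 read equals 0.431 RPM (reads scaled to library size) in both. Outside the merged domains the ES library had 0.237 RPM per kb and liver 0.0873, 2.71 times as much in ES. Inside shared domains the order was the other way, at 16.6 RPM per kb in ES and 29.1 in liver, a ratio of 1.75. The share of reads inside a library's own domains was thus 40.7% in ES and 78.3% in liver. The H3 libraries had 1.51% (ES) and 1.70% (liver) of their reads in the merged domains. The part of the unequal repeats and enrichment in the differences of height and width below was not tested.

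With repeated reads counted once, most H3K4me3 domains of ES cells were found in liver, and liver had more domains that were not called in ES cells than the reverse. ES cells had 14479 domains over 19.1 Mb and the thinned liver library 17527 over 28.9 Mb. Of the ES domains, 79.7% (79.0 to 80.3) were called in liver, and of the liver domains 65.5% (64.8 to 66.2) were called in ES. Shared domains made up 56.02% (55.3 to 56.7) of the merged regions, liver-only domains 29.6% (29.0 to 30.2) and ES-only domains 14.4% (13.9 to 14.9). With all repeated reads kept both statements reverse, as 9.599% of the ES domains were then called in liver and 133582 ES-only domains stood against 7481 liver-only ones.

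Specific domains were weak and narrow beside the shared ones. The median ES-only domain was 500 bp wide with 10 ES reads, and the median liver-only domain 500 bp wide with 14 liver reads. Shared domains had a median width of 1500 bp in each library and 2000 bp as merged, with medians of 68 ES and 129 liver reads. A domain not called in the other library was often not empty there. ES reads stood at least 2-fold over expectation in 36.2% (35.0 to 37.5) of liver-only domains, and liver reads did so in 32.3% (30.6 to 34.0) of ES-only domains. No read of the other library fell in 36.1% (34.9 to 37.3) of liver-only and 43.7% (42.0 to 45.5) of ES-only domains, a count of 0 that allows up to 3 reads. With every distinct liver read used, 584 of the 2942 ES-only domains (19.9%) were called in liver, and 23.0% of them still held 0 liver reads. The specific classes are therefore classes of detection at this depth and do not show the mark to be absent from the other source.

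Domains were wider in liver. The median width was 1000 bp in ES cells and 1500 bp in liver, and the 90th percentile 2500 and 3000 bp. Domains of up to 1 kb made up 54.4% of ES and 43.3% of liver domains, and domains of 5 kb and over numbered 70 in ES (0.483%) and 465 in liver (2.65%). In bins of 1000 bp the medians were equal, at 2000 bp. Over the shared domains the median was 1500 bp in both sources, but liver was more often the wider of the pair. Of the 11459 shared domains, 6252 were wider in liver, 54.6% (53.6 to 55.5), 1468 were wider in ES, 12.8% (12.2 to 13.4), and 3739 had the same width in both. A difference of 1500 bp or more was found at 1488 domains in favour of liver and at 168 in favour of ES. Broad domains of ES cells were mostly broad in liver: 40 of the 67 shared domains of 5 kb and over in ES were 5 kb and over in liver, while only 40 of the 368 that broad in liver were so in ES. With liver thinned further, to 1.33 M reads, until it held as many reads in shared domains as ES, liver had 294 domains of 5 kb and over. Then 44.9% of shared domains were wider in liver and 17.6% in ES. Thinning takes reads inside and outside domains alike, and 76.2% of liver reads then lay in its own domains, against 40.7% in ES. The enrichment thus stayed unequal, and its part in the width was not tested. That setting was chosen after seeing the data.

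**Figure D1:**
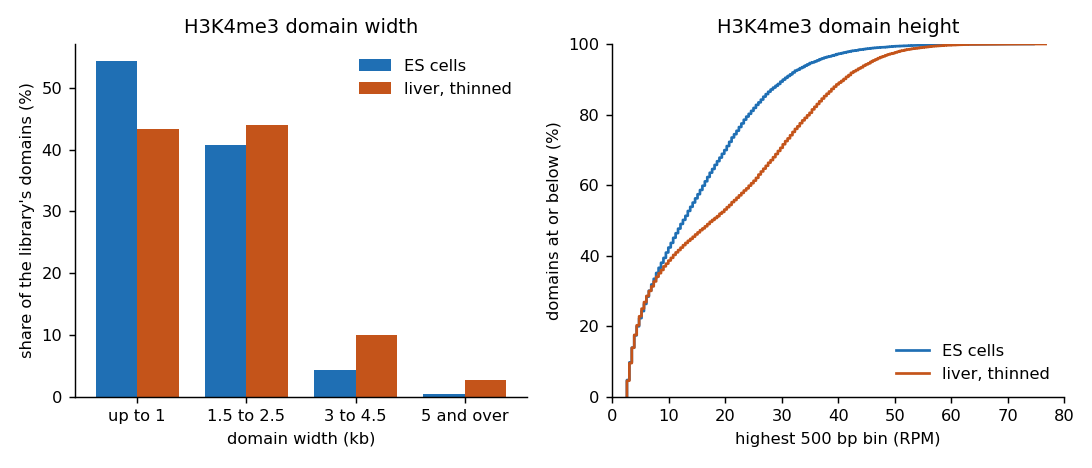
Left, the share of each library's H3K4me3 domains (%) in 4 classes of width (kb) for ES cells and the thinned liver library; right, the cumulative share of domains (%) by their highest 500 bp bin in RPM. The liver bars are taller in every class over 1 kb, and the curves run together below about 5.60 RPM, the lower quartile in both, before liver moves to higher values.

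Domains were also higher in liver, measured as RPM in the highest 500 bp bin. Over all domains of a library the median height was 12.5 RPM in ES cells and 17.7 RPM in liver, with the lower quartile at 5.60 RPM in both and the 90th percentile at 30.6 and 41.0 RPM. In shared domains the median was 16.0 RPM in ES and 27.6 RPM in liver. The log2 ratio of liver to ES height, with 1 read added to each, had a median of 0.60 and quartiles of 0.12 and 1.11. Liver was at least 2-fold higher at 3470 shared domains, 30.3% (29.4 to 31.1), and ES at 490, 4.28% (3.92 to 4.66). As background, 54.8% of the 48889 bins with at least 10 reads in 1 library were at least 2-fold higher in liver and 9.04% in ES, and 32.4% and 5.24% were at least 4-fold higher. Within shared domains alone, 49.4% of the bins were 2-fold higher in liver and 6.09% in ES, so the shares over all bins include those of the specific domains, where the direction is fixed by the class.

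The balance of height between the sources was not fixed by these data. Liver took 85.8% of the 2-fold bins and 87.6% of the 2-fold shared domains when libraries were scaled to total reads. Scaled so that the median shared domain did not differ, which shifts every log2 ratio by -0.60, liver took 74.7% of bins and 51.2% of shared domains, with 1288 domains higher in liver and 1227 in ES. Scaled by reads outside domains, a shift of 1.44, it took 95.4% and 99.8%. With all repeated reads kept it took 29.5% of bins and 91.6% of shared domains. A scaling moves the median over shared domains but not the distance between its quartiles, from 0.12 to 1.11 as given above.

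Width and height went together within each source and less closely between them. Over domains, Spearman's rho of width and height was 0.68 in ES cells and 0.72 in liver. Across the shared domains, rho was 0.54 between the widths in the 2 sources and 0.62 between the heights. These are descriptions over 11459 to 17512 regions that share a library and its depth.

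**Figure D2:**
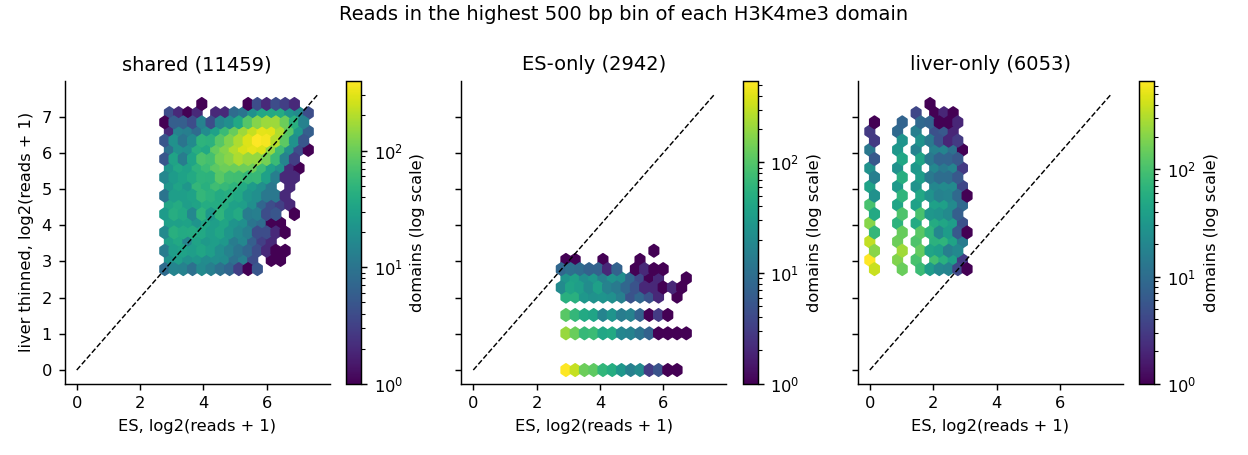
Reads in the highest 500 bp bin of each domain in ES cells (x axis) and in the thinned liver library (y axis), both as log2(reads + 1), for shared, ES-only and liver-only domains; colour gives the number of domains on a log scale and the dashed line marks equal reads. Shared domains form a cloud mostly above the line, and both specific classes are densest at their weak end, with medians of 9 ES reads and 11 liver reads.

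The widest liver domains stood over narrow ES domains. Coordinates follow the files, where no position exceeds the length of its mm8 chromosome, and no gene is attached to them here. The domain chr16:23895001-23909500 was 14.5 kb wide in liver and 2 kb in ES cells, with 774 and 76 reads. The domain chr6:90427001-90440000 was 13 kb in liver and 2 kb in ES, with 1065 and 88 reads, and held 39.2 RPM per kb of H3K27ac in liver against 1.95 and 2.84 in the ES libraries. The other domains among the 5 widest in liver were chr2:27497501-27510500, chr2:164123501-164135500 and chr5:143078001-143089500, at 13, 12 and 11.5 kb against 2, 2 and 8.5 kb in ES. The last of them was among the 5 widest of both sources. The shared domain chr9:42981001-42991500 was 10.5 kb wide in liver and 0.5 kb in ES, with 873 and 24 reads, and its liver H3K27ac was 35.7 RPM per kb against 0.815 and 0.963 in ES.

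The widest ES domain was not called in liver. It lay at chr12:87357501-87369500, was 12 kb wide, and held 302 ES reads and 7 liver reads. H3K27ac was 19.2 and 16.96 RPM per kb there in the ES libraries and 1.17 in liver. The next, chr2:162744501-162753000, was 8.5 kb in ES and 0.5 kb in liver, with 365 and 14 reads, and H3K27ac was 22.1 and 21.2 RPM per kb in ES and 0.233 in liver. The domains chr6:49142501-49148500 and chr9:59453501-59460000 were 6 and 6.5 kb wide in ES and 0.5 and 1.5 kb in liver. Wide in both sources was chr5:123395501-123405500, at 8.5 kb in ES and 10 kb in liver. At chr5:109790501-109800000 and chr7:44989501-44998000 the ES domain was 8.5 kb wide against 3.5 and 4 kb in liver, but the reads were 175 against 164 and 603 against 419.

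The highest bins of both sources reached similar counts at the thinned depth. The top ES bin had 173 reads and the top liver bin 178, where a bin offers 1000 positions on both strands to distinct reads. Liver was thinned after its repeats were removed, so its bins had filled more of these positions than the thinned counts show. The top liver bin lay in chr11:29071501-29074500, with 178 reads (76.7 RPM) in liver and 113 (48.7 RPM) in the highest ES bin of that domain. The domain chr11:98856001-98864500 had 169 reads in its top liver bin and 15 in its top ES bin. The highest ES bin lay in chr11:3092501-3094000, but H3 was 17.3 RPM per kb there in ES and 23.8 in liver, from 244 and 153 H3 reads, against a genome mean of 0.406, so its height includes a high background. At chr11:4166501-4169500, with 159 reads in the top ES bin and 72 in liver, liver H3 was 5.60 RPM per kb. The other domains with the highest ES bins, chr4:86327501-86329500, chr8:98695001-98697500 and chr5:65669001-65671500, had 163, 163 and 158 reads in ES and 95, 94 and 123 in liver. Their reads over the whole domain differed less, at 266 against 234, 280 against 230 and 306 against 280.

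The domains with the largest ratio of liver to ES held no ES read. At chr2:163238001-163243500, 5.5 kb wide, liver had 531 reads (exact Poisson 95% interval 487 to 578) and ES 0, at least 177-fold higher against a floor of 3 reads per library. The exact 95% interval of the log2 ratio of liver to ES, which allows more than 3 reads for a count of 0, begins at 7.16 there. At chr10:86950501-86955500 liver had 475 reads and ES 0, at least 158-fold higher against the same floor, and the interval of the log2 ratio begins at 7.003. The domains chr12:104739501-104744500, chr13:41247001-41249500 and chr2:27066001-27070500 had 374, 292 and 277 liver reads and 0 ES reads. All 5 carried H3K27ac in liver, at 14.6 to 34.9 RPM per kb, and 0.167 to 0.635 in either ES library. H3 in the same 5 domains was 0.384 to 0.640 RPM per kb in ES and 0.420 to 1.21 in liver. At chr11:78796501-78801500, which had 168 reads in its top liver bin, 508 liver reads stood against 3 ES reads, a ratio of 169 with an exact interval of 5.85 to 9.69 on the log2 scale.

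The domains with the largest ratio of ES to liver were narrower and held fewer reads. At chr3:41651501-41655000, 3.5 kb wide, ES had 201 reads (exact Poisson 95% interval 174 to 231) and liver 0, at least 67-fold higher against the floor of 3 reads. The exact interval of the log2 ratio of liver to ES ends at -5.75 there. The domains chr2:168696001-168699000, chr8:83754001-83756000, chr2:71148001-71150000 and chr13:98583001-98585500 had 142, 141, 125 and 124 ES reads and 0 thinned liver reads. Of the full liver library, 2 reads fell in chr2:71148001-71150000 and none in the other 4. H3K27ac in these 5 domains was 6.96 to 20.6 RPM per kb over both ES libraries and 0 to 0.297 in liver. A region of H3K4me1 was called in at least 2 ES libraries at chr2:168696001-168699000 and chr2:71148001-71150000, and at none of the 5 in liver.

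H3K27ac was found mostly in the source that carried H3K4me3. Libraries of this mark were thinned to 5.05 M distinct reads each, and regions were called as for H3K4me3. As background, the called regions covered 2.71% and 2.68% of the autosomal bins in the ES libraries and 2.92% in liver, a share of length and not of domains. At shared domains an H3K27ac region was called in both ES libraries at 90.6% (90.1 to 91.2) and in liver at 85.4% (84.7 to 86.0). At ES-only domains the shares were 59.8% (58.0 to 61.5) in ES and 5.40% (4.64 to 6.28) in liver. At liver-only domains they were 21.6% (20.6 to 22.6) in ES and 74.9% (73.8 to 76.0) in liver. Mean levels had the same order in ES cells, while in liver the mean was highest at liver-only domains. Liver H3K27ac averaged 9.59, 0.688 and 10.5 RPM per kb at shared, ES-only and liver-only domains. Its medians were 8.58, 0.132 and 7.53 in the same order, so the median was highest at shared domains. The ES libraries had 7.83 and 11.2 at shared, 7.09 and 8.48 at ES-only and 2.24 and 2.51 at liver-only domains. H3 was 0.432 to 0.548 RPM per kb in ES and 0.494 to 0.619 in liver over the same classes. The ES libraries differed in how often they called the mark at ES-only domains, at 62.3% in replicate 1 and 78.4% in replicate 2.

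H3K4me1 divided the classes less sharply. With libraries thinned to 6.20 M reads, a liver H3K4me1 region was called at 92.9% (92.4 to 93.3) of shared, 84.0% (83.0 to 84.9) of liver-only and 36.0% (34.3 to 37.7) of ES-only domains. In at least 2 of 3 ES libraries it was called at 52.3% (51.3 to 53.2) of shared, 43.8% (42.0 to 45.6) of ES-only and 34.4% (33.2 to 35.6) of liver-only domains. The ES libraries ranged from 28.7 to 55.4% at ES-only domains and from 26.7 to 44.3% at liver-only domains, each with the lowest share in V6.5 cells and the highest in inbred C57BL/6 cells. At shared domains the order was another, at 44.9% in V6.5 cells, 59.0% in V6.5 cells with the transgene and 52.5% in inbred cells. As background, called H3K4me1 regions covered 3.91%, 4.22% and 5.57% of the autosomal bins in these libraries, in the same order, and 4.80% in liver. The V6.5 library without the transgene was made after 2 passages without feeder cells and the others after 1. Whether the cell line, the passages or the library sets the range of the ES libraries cannot be told apart. With an overlap of 50% of the shorter region in place of 1 bp, the share of shared domains with ES H3K4me1 was 42.5%.

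The marks of the source without a called H3K4me3 domain were as follows. In liver, 31.6% (30.0 to 33.3) of ES-only domains had H3K4me1 without H3K27ac and 63.0% (61.2 to 64.7) had neither mark. In ES cells, 11.2% (10.4 to 12.02) of liver-only domains had H3K4me1 in at least 2 libraries and H3K27ac in neither, 21.6% had H3K27ac in both, and 43.3% (42.0 to 44.5) had no call of either mark in any ES library. These states are defined over 1 liver library per mark and 5 ES libraries in all, so the percentages of the sources are not on the same footing and are given without a comparison of their size.

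**Figure D3:**
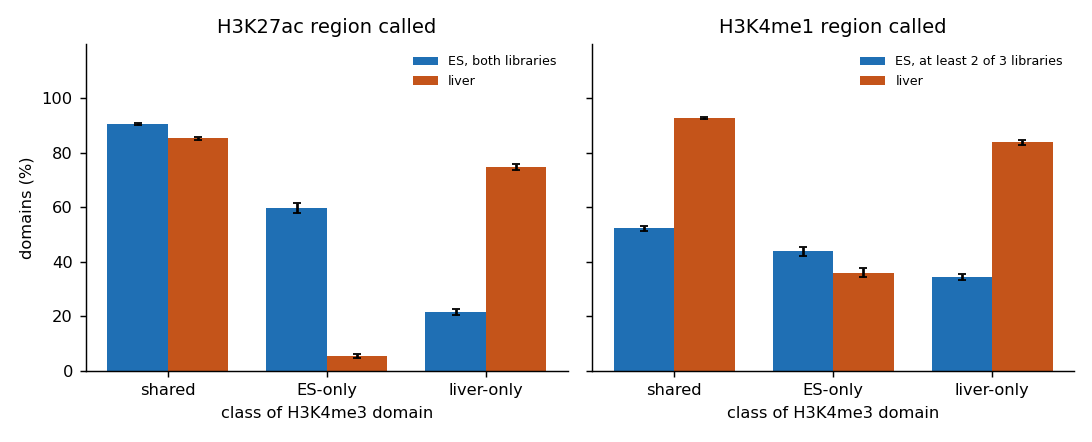
Share of H3K4me3 domains (%) in each class that overlap a called region of H3K27ac (left; ES, both libraries) or of H3K4me1 (right; ES, at least 2 of 3 libraries), with Wilson 95% intervals that cover counting error only. The liver bar for H3K27ac is 5.40% at ES-only and 74.9% at liver-only domains, and the ES bar goes the other way, from 59.8% to 21.6%.

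Around the summit, the 500 bp bin with the most H3K4me3 reads of both libraries, ES H3K4me1 was low at shared domains. The 3 ES libraries had 0.720, 1.39 and 0.717 RPM per kb within 250 bp of the summit and reached maxima of 2.13, 2.20 and 2.17 at about 1 kb from it. Liver H3K4me1 dipped less, from 3.54 RPM per kb at 625 bp to 2.90 at the summit. ES H3 was itself lower at these summits, at 0.342 RPM per kb against 0.604 at 1 to 1.5 kb, while liver H3 was 0.511 against 0.528. The whole cell extract (WCE) of liver, sequenced without an antibody, was higher at the summit, at 1.15 against 0.624 RPM per kb, and that of ES cells was 0.739 against 0.686. Its part in the liver levels at summits was not tested.

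At specific summits the source without a called H3K4me3 domain had a single peak of H3K4me1 in place of a dip. Some H3K4me3 was measured there too, at 1.196 RPM per kb in liver at ES-only summits against 0.306 at 1 to 1.5 kb. In ES cells at liver-only summits it was 1.05 against 0.401. Further out the levels rose again, to 0.855 at 3 to 5 kb and 1.14 at 9 to 10 kb in liver, and to 0.732 and 0.746 in ES cells. The liver level at ES-only summits was thus about that at 9 to 10 kb. Liver H3K4me1 was 2.16 RPM per kb at the summit of ES-only domains and 0.815 at 1 to 1.5 kb, where liver H3 was 0.613 and 0.542 and liver WCE 0.898 and 0.634. ES H3K4me1 was 1.499, 1.78 and 2.04 RPM per kb at the summit of liver-only domains against 1.11, 1.15 and 1.29 at 1 to 1.5 kb, where ES H3 was 0.551 and 0.557 and ES WCE 0.762 and 0.601. In the source with H3K4me3 the shapes differed. ES H3K4me1 at ES-only domains had maxima of 2.05, 2.40 and 2.58 at 625 to 875 bp and 1.44, 2.15 and 2.02 at the summit, whereas liver H3K4me1 at liver-only domains was 5.36 RPM per kb at the summit and 2.81 at 1 to 1.5 kb. The liver-only domains thus had the highest liver H3K4me1 of the 3 classes at the summit, at H3K4me3 of 14.3 RPM per kb against 51.9 in shared domains.

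**Figure D4:**
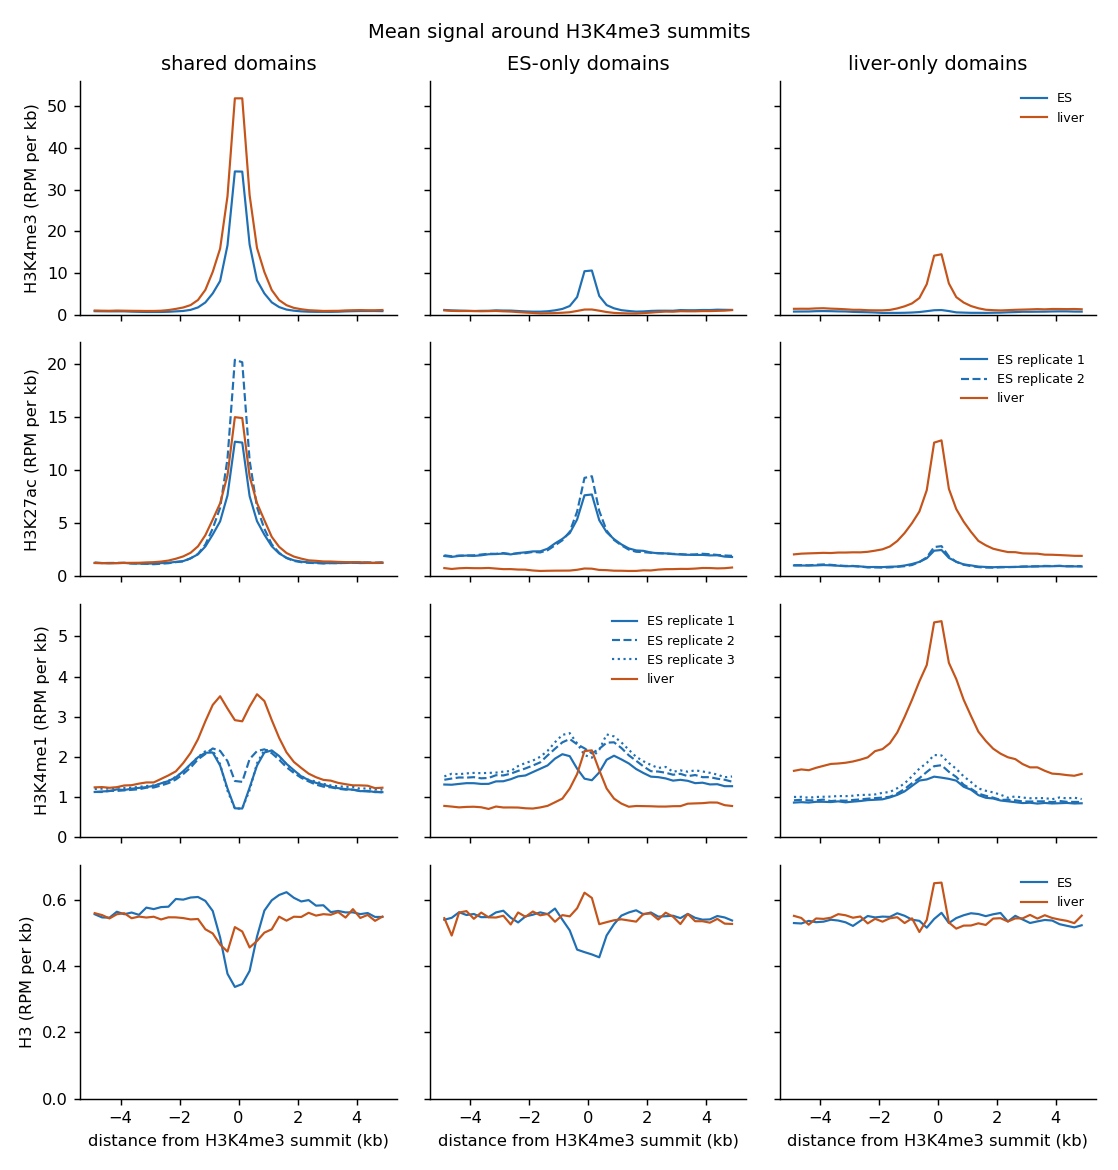
Mean RPM per kb of H3K4me3, H3K27ac, H3K4me1 and H3 (rows) in 250 bp steps by distance from the H3K4me3 summit (kb) for the 3 classes of domain (columns), with 1 line per library, ES in blue and liver in orange. The ES H3K4me1 lines dip at shared summits to 0.717 to 1.39 RPM per kb, and liver H3K4me1 forms a single peak at ES-only summits.

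Among shared domains, H3K27ac was higher in the source where H3K4me3 was wider. The H3K27ac libraries had no part in measuring the width, but levels are per kilobase of the merged domain. The source with the narrower domain is thus averaged over flanks outside its own domain as well. At domains wider in liver by 1500 bp or more, the median width was 1 kb in ES and 3.5 kb in liver. The part of these flanks in the levels was not tested. At the 1488 domains wider in liver by 1500 bp or more, liver H3K27ac averaged 14.7 RPM per kb and the ES libraries 4.64 and 6.30. At the 3739 domains of equal width the values were 8.72 in liver and 9.30 and 13.6 in ES. At the 168 domains wider in ES by 1500 bp or more, they were 2.68 in liver and 12.05 and 15.5 in ES. The share of domains with a liver H3K27ac region was 98.3% (1463 of 1488) in the first group, 82.4% in the group of equal width and 54.8% (92 of 168) in the last. Both ES libraries called H3K27ac at 87.3%, 92.2% and 95.8% of the same groups. H3 stayed between 0.405 and 0.503 RPM per kb in ES and between 0.488 and 0.524 in liver.

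H3K4me1 was not ordered in this way. Liver H3K4me1 was 4.07, 3.81 and 3.77 RPM per kb at domains wider in liver by 1500 bp or more, of equal width, and wider in ES by 1500 bp or more. The ES libraries were lowest at domains of equal width, at 1.14, 1.76 and 1.07 RPM per kb, and higher at both ends, at 1.81, 2.16 and 2.05 and at 1.52, 2.26 and 1.89. A call in at least 2 ES libraries was made at 83.5%, 34.6% and 75.6% of these groups in the same order.

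**Figure D5:**
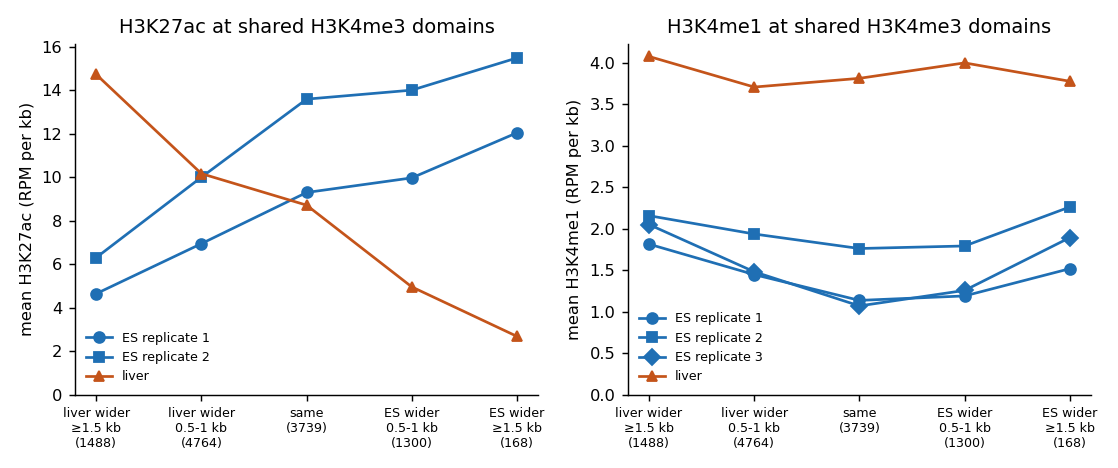
Mean H3K27ac (left) and H3K4me1 (right) in RPM per kb of merged domain at shared H3K4me3 domains, grouped by the difference in H3K4me3 width between liver and ES cells, with the number of domains in brackets and 1 line per library. Liver H3K27ac goes from 14.7 to 2.68 RPM per kb from left to right while the ES libraries go from 4.64 and 6.30 to 12.05 and 15.5, and liver H3K4me1 stays between 3.71 and 4.07.

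Grouping by height ordered liver H3K27ac in the same way, and ES H3K27ac less regularly. The shared domains were ranked by their log2 ratio of liver to ES height and divided into 5 groups of equal size. In the lowest group, with a median of -0.45, liver H3K27ac was 4.76 RPM per kb and was called at 58.8% of domains. In the highest group, with a median of 1.67, it was 12.6 RPM per kb and called at 95.2%. The ES libraries had 8.90 and 13.0 RPM per kb in the lowest group, 9.11 and 13.2 in the next, and 5.23 and 7.23 in the highest. Both ES libraries called H3K27ac at 87.9%, 93.5%, 94.3%, 93.2% and 84.4% of domains from the lowest to the highest group. Liver H3K4me1 was 4.25 and 3.97 RPM per kb at these ends, and its called share 93.6% and 93.7%. H3 in liver was 0.487 and 0.538, and in ES 0.394 and 0.463.

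Within each source, wider domains carried H3K27ac more often. Among ES domains the mark was called in both ES libraries at 74.1% of those up to 1 kb, 96.0% of those from 1.5 to 2.5 kb, 99.2% of those from 3 to 4.5 kb and all 71 of 5 kb and over. In liver the shares were 64.2%, 94.0%, 98.98% and 100%. The level per kilobase was also higher in wider domains, from 6.15 and 8.37 to 14.5 and 19.5 RPM per kb in the ES libraries and from 7.57 to 17.5 in liver. A wider domain overlaps a region of another mark more easily. The level is per kilobase of the merged domain, so a narrow domain within a wider one of the other source is averaged over flanks as well. These groups merge neighbouring domains of 1 library where a domain of the other joins them, hence 71 ES domains of 5 kb and over here.

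The stronger specific domains nearly all carried H3K27ac in their own source. Liver-only domains with at least 50 liver reads numbered 1025, 16.9% of their class, with a median width of 2.5 kb. Of these, 98.6% carried liver H3K27ac and 92.0% liver H3K4me1. In ES cells 118 of them held 0 H3K4me3 reads, the median was 3 and the highest 21. Both ES libraries called H3K27ac at 24.8% of them, and 394 had no call of either mark in any ES library. H3K4me1 was called in at least 2 ES libraries at 40.9%. Among the weaker liver-only domains, 70.1% had liver H3K27ac, 82.3% liver H3K4me1, 20.9% H3K27ac in both ES libraries and 33.1% H3K4me1 in at least 2. The marks of ES cells were thus called somewhat less often there, but their mean levels were higher. ES H3K27ac was 2.36 and 2.66 RPM per kb at the weaker domains against 1.63 and 1.81 at the strong ones. ES H3K4me1 was 1.54, 1.81 and 2.06 against 1.26, 1.46 and 1.70. The weaker domains had a median width of 0.5 kb, and a wider domain overlaps a called region more easily.

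ES-only domains with at least 50 ES reads numbered 184, 6.25% of their class, with a median width of 2 kb. Of these, 92.4% carried H3K27ac in both ES libraries and 4 (2.17%) carried it in liver. Liver H3K4me1 was called at 88 of them (47.8%), at 1.73 RPM per kb against a liver H3 of 0.647. Among the weaker ES-only domains, 57.6% had H3K27ac in both ES libraries, 5.62% in liver and 35.2% liver H3K4me1. Liver H3K4me3 had 0 reads in 42 of the 184 strong domains, with a median of 3 and a highest count of 19.

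Specific domains were not mainly neighbours of shared ones. A shared domain lay within 10 kb of 23.5% (22.0 to 25.1) of ES-only and 21.0% (19.99 to 22.0) of liver-only domains, against 20.1% (19.4 to 20.9) of shared domains with another shared domain that close. Liver-only domains near a shared domain had H3K27ac in both ES libraries at 32.2% and liver H3K27ac at 82.2%, and those further away at 18.8% and 73.0%. ES-only domains near a shared domain had liver H3K27ac at 9.84% and ES H3K27ac at 71.5%, and those further away at 4.04% and 56.2%. Median heights were alike near and far, at 3.88 RPM in ES-only domains in both places and at 4.31 and 4.74 RPM in liver-only domains.

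Every autosome held all 3 classes. Domains were densest on chromosome 11, at 13.4 per Mb, and sparsest on chromosome 14, at 5.70 per Mb. Liver-only domains made up 22.3% of the domains of chromosome 7 and 37.2% of those of chromosome 3, the lowest and highest shares. ES-only domains ranged from 10.98% on chromosome 6 to 17.3% on chromosome 15.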

How the data were processed

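Each deposited file lists aligned reads as signed positions under chromosome names, in sections named U0 and U1, per the file headers. The authors deposited read positions, not counts or a signal, and which aligner and build made them is not given in the sources used here. No position exceeds its mm8 chromosome, and no annotation or genome of that build was used, so domains carry no gene names and no sequence. Per the labels, fragments averaged 500 bp and libraries had 18 PCR cycles.

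Reads on chromosomes 1 to 19 were counted once per position and strand, moved 100 bp toward the fragment centre, and thinned with a fixed seed. RPM are per distinct read on these chromosomes. A 500 bp bin was called at a Poisson, Benjamini-Hochberg adjusted p of 0.01 and at least 3-fold over expectation, which was the genome mean or, where higher, the scaled H3 level over 5000 bp. Gaps of up to 1000 bp between called bins were bridged, and domains overlapping by 1 bp merged. The caller was tested on simulated reads. The domains named were, with at least 50 reads in 1 library, the 5 at each end of the liver over ES ratio, the 5 widest and the 5 highest per library, and the 5 shared ones with the largest width difference each way. The alternatives changed the treatment of repeats, thinning, background, thresholds, joining, bin size, overlap and scaling. Members, lists and rules were chosen with earlier results of these data known. Python 3.11.15, numpy 2.4.6 and scipy 1.17.1 were used.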

Additional observations from a re-analysis of the deposited data

Results flagged for a closer look

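Chromosome X lies outside the autosomes that the comparison covers, and it also carried H3K4me3. The same caller found 473 domains there in ES cells and 525 in the thinned liver library, of which 374 merged domains were shared, 98 were ES-only and 151 liver-only. H3 called in the same way against WCE gave 6 regions in ES cells and 4 in liver. The sex of the liver donors is not stated.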

How the results depend on the processing

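With all repeats kept, ES cells had 147766 domains, 133582 of them ES-only, and 602 ES and 851 liver domains were of 5 kb and over. Then 4626 shared domains were wider in ES, 7244 were at least 2-fold higher in liver, the median log2 height ratio was 1.04, and 51481 bins were 2-fold higher in liver and 123090 in ES. With liver not thinned, liver-only domains numbered 10796 and liver domains of 5 kb and over 987, 806 shared domains were wider in ES, 825 were 2-fold higher in ES, and the median ratio was 0.55. Domains of 5 kb and over in ES and liver numbered 320 and 943 when joined up to 3000 bp and 264 and 1079 in bins of 1000 bp. In ES they numbered 38 at an adjusted p of 0.0001 and 43 when joined up to 500 bp. With signal-matched thinning, chosen after seeing the data, liver had 294.

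Scaled to a median of 0, 1288 shared domains were 2-fold higher in liver and 1227 in ES, and the median was 0. Scaled by reads outside domains, these were 10302, 21 and 2.05, with 42631 bins higher in liver and 2063 in ES. With at least 20 reads, 17001 and 1824 bins passed. The median ratio was 0.67 in 1000 bp bins, 0.58 with a pseudocount of 3 reads and 0.64 with signal-matched thinning. Without 1 of the 3 ES H3K4me1 libraries, a call in both others was made at 3748 to 4538 shared, 699 to 1113 ES-only and 1276 to 1734 liver-only domains, in place of 5989, 1289 and 2083, since fewer pairs can make the call. H3K27ac of 1 ES library alone was called at 10436 to 11150 shared, 1833 to 2306 ES-only and 1540 to 1896 liver-only domains.

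Among the named domains, the log2 ratio of reads changed sign from ES to liver at chr4:86327501-86329500 (0.28 with all repeats, 1.26 scaled outside domains), chr5:65669001-65671500 (0.019 and 1.31), chr5:109790501-109800000 (0.038 and 1.35) and chr8:98695001-98697500 (0.15 and 1.16). It also did so outside domains alone at chr7:44989501-44998000 (0.92), chr11:3092501-3094000 (0.66) and chr11:4166501-4169500 (0.37). Of the counts and medians recomputed under an alternative, 165 stayed close to the reported value and 38 did not. Close means within 1.5 times the reported count, or for the median ratio within 0.585 to 0.620, its 95% interval over domains. The 165 include values that a setting could not change, such as the number of ES domains where only the thinning of liver was altered. A read was worth 0.431 RPM, so the depth limits the weak domains most. No paired analysis was possible because each source has 1 H3K4me3 library and the numbered ES libraries have no numbered liver partner.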

Other observations

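In neural progenitors, H3K27ac and the factor Rfx1 were highest per kilobase at shared domains. For p300 of ES cells the mean was highest at ES-only domains but the median at shared ones. H3K27ac of neural progenitors grown from ES cells averaged 21.1 RPM per kb at shared, 3.54 at ES-only and 2.54 at liver-only domains. Of the shared domains, those wider in liver by 1500 bp or more had 13.0 RPM per kb, those of equal width 25.1 and those wider in ES by 1500 bp or more 12.6. Rfx1, a transcription factor mapped in the same progenitors, averaged 18.5, 7.78 and 3.62 RPM per kb over the 3 classes, from a library with 72.5% repeated reads and 0.694 M distinct reads. The acetyltransferase p300 of ES cells averaged 2.91 and 2.28 RPM per kb in its 2 libraries at shared domains. The means were 3.44 and 2.75 at ES-only and 1.90 and 1.59 at liver-only domains. The medians were 2.55 and 1.94 at shared, 2.30 and 1.78 at ES-only and 1.15 and 0.971 at liver-only domains. Mean ES WCE was 0.760, 0.804 and 0.748 over the 3 classes.

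H3K4me1 of induced pluripotent cells and of fibroblasts differed little between the classes. It averaged 2.13, 2.35 and 1.88 RPM per kb at shared, ES-only and liver-only domains in induced pluripotent cells, and 2.65, 3.29 and 2.91 in fibroblasts, whose H3 was 0.953, 1.15 and 0.722. At the 394 strong liver-only domains with no mark called in ES cells, induced pluripotent cells had 0.368 and fibroblasts 0.978 RPM per kb of H3K4me1, and neural progenitors had 0.746 RPM per kb of H3K27ac.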
